A study of Mus musculus with 4 samples.

Results

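Transcripts of 6 costimulatory receptors, Tnfrsf4 (OX40), Tnfrsf18 (GITR), Icos, Cd28, Cd27 and Tnfrsf1b (TNF receptor type II), were followed in CD8 T cells of spleen and tumour, in all cells and in cells with or without a value of Tnfrsf9 (CD137, 4-1BB) and of Pdcd1 (PD-1). The receptors were listed by name, without a threshold on values but with earlier results of these data known, and are 6 of the 12763 genes of the deposited table, which holds 6965 cells. C57BL/6 mice were lethally irradiated with 8 Gray and given marrow from Cd4cre Cd137fl/fl ROSA26tomato donors together with marrow from Cd137fl/fl ROSA26tomato donors, so that both kinds of T cell matured in the same hosts. B16K1 melanoma cells were placed under the skin, and 21 days later the CD8 T cells were isolated from both organs, sorted on tomato fluorescence, hashtagged per mouse and pooled from 7 mice into 4 suspensions, each of which became 1 library of 5' single-cell RNA sequencing. The groups are CD137 minus and CD137 plus cells of the spleen, and the same pair of the tumour. All cells come from irradiated hosts bearing B16K1 tumours, and both donors carry the floxed alleles and the ROSA26tomato allele. The Cd4 promoter drives Cre in developing T cells of the CD137 minus donor alone, so loss of CD137, Cre activity and the donor itself cannot be told apart. The labels disagree on the reporter, with CD137ko cells tomato negative by source name and CD137 minus cells tomato positive by the protocol and design. Groups here follow the CD137 status. With 1 library per group and no mouse named for a cell, no difference has a replicate check and no test was made. Intervals (95%, exact) cover counting error only.

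A T cell needs a second signal beside its antigen receptor, and costimulatory receptors carry it. CD28 and ICOS belong to the immunoglobulin superfamily and signal through phosphoinositide 3-kinase. CD28 binds CD80 and CD86 and is present on resting T cells, whereas ICOS appears after activation and binds ICOS ligand. OX40, GITR, CD27 and TNF receptor type II, like CD137, belong to the tumour necrosis factor receptor superfamily, bind TRAF adaptors and activate NF-kB. CD27 is carried by naive and memory T cells and binds CD70, while OX40, GITR and TNF receptor type II are best known as receptors raised by activation and abundant on regulatory T cells.

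Members that lie beside each other on a chromosome are shown first. In the GENCODE annotation of mm10, Tnfrsf4 (ENSMUSG00000029075, chr4:156013843-156016612, plus strand) and Tnfrsf18 (ENSMUSG00000041954, chr4:156026164-156028895, plus strand) were separated by 9551 bases with 0 protein-coding genes between them. Cd28 (ENSMUSG00000026012, chr1:60716800-60773359, plus strand) and Icos (ENSMUSG00000026009, chr1:60977927-61000320, plus strand) flank Ctla4, their inhibitory relative, which was the 1 protein-coding gene between them. Tnfrsf1b (ENSMUSG00000028599, chr4:145213463-145246870, minus strand) lies on the chromosome of Tnfrsf4 but far from it, and Cd27 (ENSMUSG00000030336, chr6:125232622-125237010, minus strand) lies alone. Tnfrsf18 overlaps the antisense gene Gm16008 and Cd27 overlaps Vamp1 on the other strand. The strand setting of the counting was not stated, so reads of overlapping genes cannot be told apart.

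The promoter windows of Tnfrsf4 and Tnfrsf18, the neighbours that were found in the same cells, and of Cd27, the member that was lower in tumour than in spleen, are given below from RefSeq (build GRCm38.p6). Each runs 5' to 3' along the gene's strand over 300 bases, from 250 before the start in RefSeq. These starts differ from the GENCODE starts given above, and the Tnfrsf4 window ends before the GENCODE start of that gene. Windows were found for 4 of the 6 members. Capitals mark matches, on either strand, to the NFAT core GGAAA and to the NF-kB motif GGGNNNNNCC.
Tnfrsf4 (chr4:156013445-156013744, plus strand): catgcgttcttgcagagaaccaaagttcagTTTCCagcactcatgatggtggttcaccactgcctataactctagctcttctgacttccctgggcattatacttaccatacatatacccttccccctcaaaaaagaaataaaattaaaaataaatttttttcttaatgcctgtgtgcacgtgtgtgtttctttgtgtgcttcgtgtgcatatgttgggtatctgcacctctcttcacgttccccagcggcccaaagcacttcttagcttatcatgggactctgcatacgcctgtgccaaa
Tnfrsf18 (chr4:156026072-156026371, plus strand): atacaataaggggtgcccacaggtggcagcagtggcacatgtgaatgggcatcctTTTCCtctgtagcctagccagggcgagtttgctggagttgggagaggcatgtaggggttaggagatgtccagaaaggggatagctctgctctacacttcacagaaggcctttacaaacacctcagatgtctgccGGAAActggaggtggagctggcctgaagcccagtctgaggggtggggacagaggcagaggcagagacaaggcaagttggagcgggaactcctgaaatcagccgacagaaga
Cd27 (chr6:125236978-125237277, minus strand): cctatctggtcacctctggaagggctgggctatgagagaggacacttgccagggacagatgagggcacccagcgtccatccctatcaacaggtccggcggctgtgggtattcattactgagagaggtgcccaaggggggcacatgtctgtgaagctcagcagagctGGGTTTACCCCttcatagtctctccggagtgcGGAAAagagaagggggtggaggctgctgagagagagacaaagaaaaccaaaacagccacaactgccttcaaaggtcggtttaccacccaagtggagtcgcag
The NFAT core occurred 1 time in the Tnfrsf4 window, 2 times in that of Tnfrsf18, 1 time in that of Cd27 and 0 times in that of Tnfrsf1b. It was present in 61.3% of the 32851 windows of the table. The NF-kB motif, present in 50.8% of windows, matched at 2 overlapping positions for Cd27 and at 3 overlapping positions for Tnfrsf1b, and not in the windows of Tnfrsf4 and Tnfrsf18. The AP-1 motif TGANTCA, present in 7.81% of windows, matched in none of the 4. These are letter matches, not measured sites.

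The 4 libraries held 473 to 2766 cells, and the corrected counts per cell had medians from 3701.5 to 5344. A Cd8a or Cd8b1 value was present in 99.1% to 99.3% of cells and a Cd3e value in 97.9% to 99.2%. Tnfrsf9, the targeted gene, had a value in 0.852% of CD137 minus and 4.23% of CD137 plus cells of the spleen, and in 15.8% and 45.3% of those of the tumour. In the tumour its level was 57.5 CPM (corrected counts summed over the cells of a group and scaled to a total of 1000000) in CD137 minus and 421 CPM in CD137 plus. The labels do not name the deleted part of Cd137, so a Tnfrsf9 value in a CD137 minus cell shows a transcript and not an intact receptor. Between libraries, 19 barcodes occurred in 2 of them.

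Tnfrsf4 was the lowest of the 6 in share of spleen cells, with a value in 0.852% (0.528% to 1.30%) of CD137 minus and 1.69% (0.733% to 3.31%) of CD137 plus cells. In the tumour it had a value in 19.0% (16.9% to 21.3%) of CD137 minus and 23.3% (21.7% to 24.9%) of CD137 plus cells. Its level was 2.34, 3.24, 94.9 and 137 CPM in the order CD137 minus then plus, spleen before tumour. The intervals of the spleen libraries overlap each other, and those of the tumour do not. Tnfrsf18, its chromosomal neighbour, was present in both organs, at 81.1, 75.0, 145 and 188 CPM in the same order. It had a value in 27.3% and 30.9% of spleen cells and in 39.2% and 38.8% of tumour cells. Cells thinned to 2900 corrected counts each gave 20.4%, 17.1%, 27.8% and 32.9%. Thinning evens out the corrected totals of cells and libraries, but cannot undo differences in sequencing depth from before the correction.

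Tnfrsf1b, the receptor for tumour necrosis factor found mainly on immune cells, stood at 9.16, 17.8, 51.0 and 69.8 CPM and had a value in 3.33%, 8.25%, 18.0% and 19.5% of cells. Cd27 ran the other way. Its level was 225 CPM in spleen CD137 minus and 239 CPM in spleen CD137 plus, against 168 and 162 CPM in the tumour. A value of Cd27 was found in 56.0% and 67.4% of spleen cells and in 46.1% and 38.6% of tumour cells. After thinning, the spleen shares were 45.7% and 45.5% and the tumour shares 34.0% and 31.4%.

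Of the CD28 family members, Cd28 was at 102 and 97.7 CPM in the spleen and at 249 and 234 CPM in the tumour, with CD137 minus given first. It was found in 29.8% and 34.0% of spleen cells and in 53.8% and 47.1% of tumour cells, and in 41.9% and 40.6% of tumour cells after thinning. Icos was at 23.1 and 24.3 CPM in the spleen and at 160.5 and 184 CPM in the tumour. A value of Icos was present in 8.28% and 9.94% of spleen cells and in 33.8% and 34.1% of tumour cells. The cells with the most Icos or Cd28 counts were in the tumour CD137 minus library, where single cells reached 18 counts of Icos and 19 of Cd28.

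**Figure D1:**
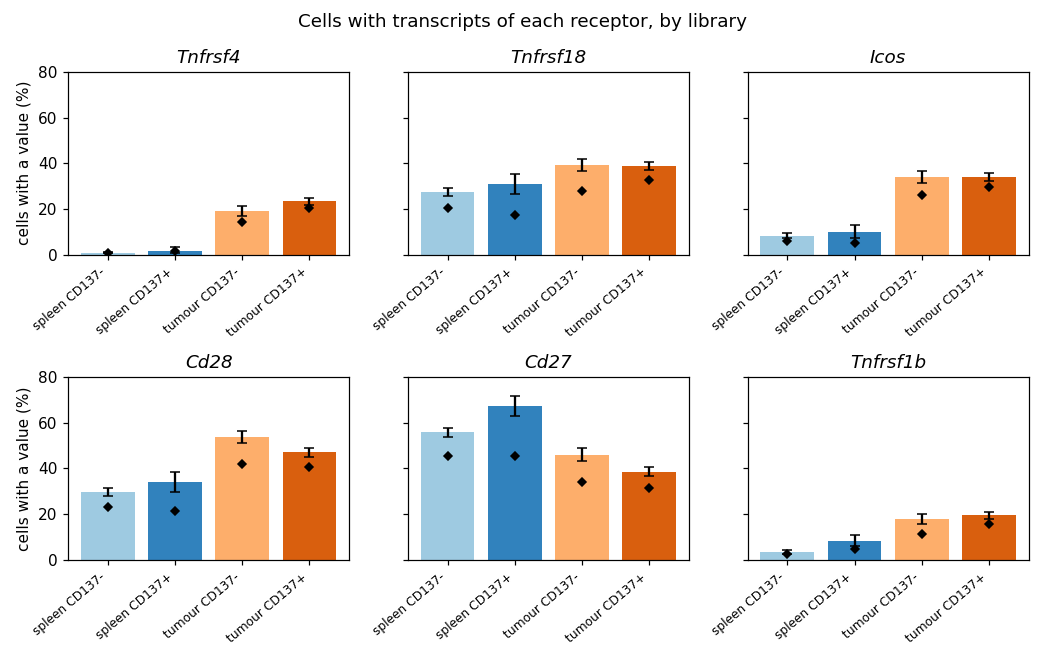
Percentage of cells with a value of each receptor in the 4 libraries. Bars are all cells as deposited with the exact 95% interval, diamonds the share after each cell was thinned to 2900 counts. Tnfrsf4, Icos and Tnfrsf1b lie between 0.852% and 9.94% in spleen and between 18.0% and 34.1% in tumour, and Cd27 is higher in spleen than in tumour.

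The first question is how the receptors differ between tumour and spleen. Differences are log2 ratios of CPM with 1 CPM added to both sides, and a difference of 0.5 or more in size was counted as higher or lower among genes measured (at least 20 CPM and a value in 5% of cells in one of the groups). In CD137 plus cells all 6 receptors passed the filter, 5 were higher in the tumour and 1 was lower, where 24.2% of all measured genes were higher and 17.5% lower. In CD137 minus cells 5 of 6 were higher and 0 lower, where 22.0% of genes were higher and 14.5% lower. The difference for Tnfrsf4 was 5.02 (4.41 to 6.61) in CD137 plus and 4.84 (4.74 to 6.01) in CD137 minus cells, and it rests on 8 and 23 counts in the spleen. Intervals of differences are for the ratio without the added 1 CPM, which draws a difference toward 0 where counts are few. Icos differed by 2.87 and 2.74, Tnfrsf1b by 1.91 and 2.36, Tnfrsf18 by 1.32 and 0.83 and Cd28 by 1.25 and 1.28, with CD137 plus given first. Cd27 was lower in the tumour by -0.56 (-0.70 to -0.42) in CD137 plus cells and by -0.42 (-0.53 to -0.31) in CD137 minus cells, where it did not reach the size. The median of the 6 was 1.61 and 1.82, beside 0.07 and 0.03 for all measured genes. In both comparisons Tnfrsf4 and Tnfrsf1b passed the filter through the tumour alone, so a higher value there was fixed by the filter, and their calls add nothing to the count.

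The second question is whether the receptors differ with CD137. In the tumour 1 of the 6, Tnfrsf4, was lower in CD137 minus cells, at -0.52 (-0.67 to -0.38), where 5.44% of measured genes were lower and 1.7% higher. The median of all genes in that comparison was -0.13, and relative to it Tnfrsf4 stood at -0.39, short of the size. Tnfrsf1b was at -0.44 (-0.65 to -0.26) and Tnfrsf18 at -0.37 (-0.49 to -0.26), both with intervals below 0, although without scaling Tnfrsf18 stood at -0.0072. Icos was at -0.20 (-0.31 to -0.08), but at -0.07 relative to the median and at 0.17 on counts per cell without scaling, so its direction rests on the scaling. Cd27 was at 0.05 (-0.06 to 0.16) and Cd28 at 0.09 (-0.01 to 0.18). In the spleen 0 of the 4 receptors measured were higher or lower, where 1.41% of genes were higher and 10.3% lower. Tnfrsf18 differed there by 0.11, Cd28 by 0.06, Icos by -0.07 and Cd27 by -0.09, all with intervals that hold 0. Without scaling Tnfrsf18 and Cd28 were at -0.27 and -0.32. Tnfrsf4 and Tnfrsf1b did not pass the filter in the spleen. Tnfrsf1b was at 9.16 CPM in CD137 minus against 17.8 CPM in CD137 plus cells, a difference of -0.89 (-1.50 to -0.41) from 90 and 44 counts.

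**Figure D2:**
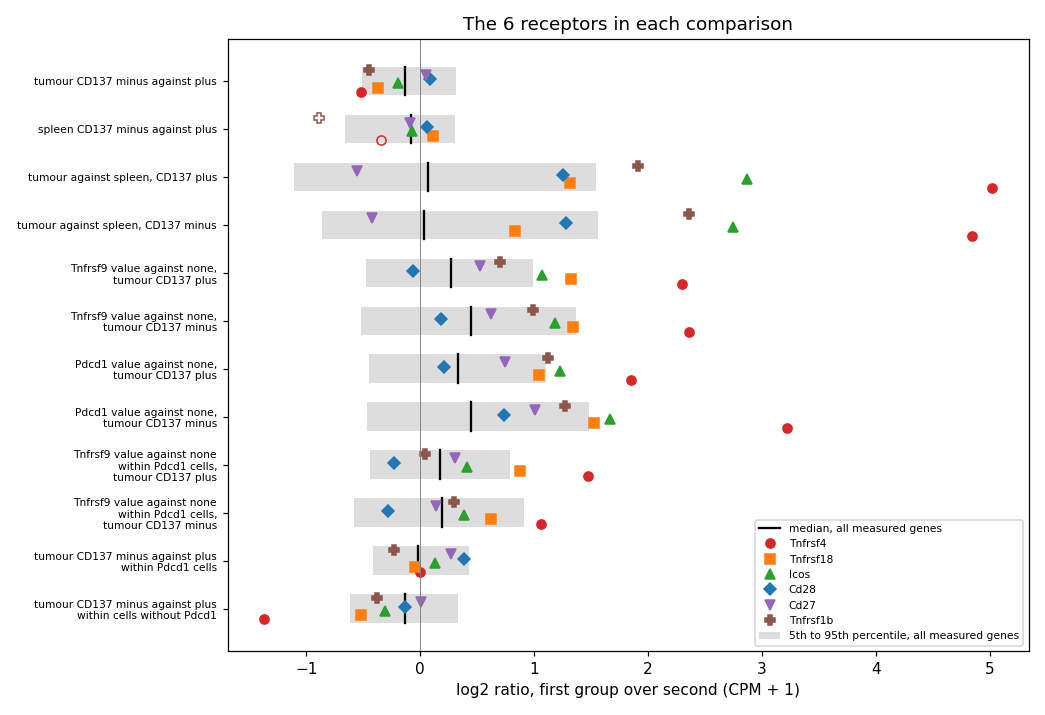
Log2 ratio of each receptor (symbols) in the 12 comparisons, first group over second, on the scale of CPM plus 1. Grey bars span the 5th to the 95th percentile of all measured genes and black lines mark their median, open symbols did not pass the filter. Tnfrsf4 is at or past the edge of the grey bar in 10 of the 12 comparisons. These include tumour against spleen, the Pdcd1 split in CD137 minus, and CD137 minus against plus without Pdcd1. There Tnfrsf4 passed the filter only through the group where it is higher, so its direction was fixed.

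Within the tumour, cells were split by a Tnfrsf9 value. The cells with a value also had more genes detected, with medians of 1579.5 against 1181 genes per cell in CD137 plus (1252 and 1514 cells) and 2014.5 against 1373.5 in CD137 minus (200 and 1062 cells). In CD137 plus cells 5 receptors were higher with Tnfrsf9 and 0 lower, where 26.5% of genes were higher and 4.82% lower. Tnfrsf4 was at 239.5 CPM with Tnfrsf9 and 48.0 CPM without, a difference of 2.29 (2.12 to 2.52), and Tnfrsf18 was at 278 against 111 CPM, a difference of 1.33 (1.19 to 1.47). Icos differed by 1.07, Tnfrsf1b by 0.70 and Cd27 by 0.52, beside a median of 0.27 for all genes. Relative to that median Tnfrsf1b stood at 0.43 and Cd27 at 0.25, short of the size. Cd28 was at 229 against 239 CPM, a difference of -0.06 (-0.18 to 0.06). In CD137 minus cells the same 5 receptors were higher and 0 lower, where 45.0% of genes were higher and 5.35% lower. The differences were 2.36 for Tnfrsf4, 1.34 for Tnfrsf18, 1.18 for Icos, 0.99 for Tnfrsf1b, 0.62 for Cd27 and 0.18 for Cd28, beside a median of 0.44, relative to which Cd27 stood at 0.18 and Cd28 at -0.26. With each cell thinned to 2900 counts, Tnfrsf4 was found in 35.7% of CD137 plus cells with Tnfrsf9 and 7.46% without, and in 43.5% and 8.85% of CD137 minus cells. No cells of the tumour libraries are sure to lack these transcripts, so a background share from free RNA could not be read, and its part was not tested.

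The split by a Pdcd1 value gave 1527 cells with and 1239 without in CD137 plus, and 514 with and 748 without in CD137 minus. Cells with Pdcd1 had more genes detected at the median, 1499 against 1187 in CD137 plus and 1729.5 against 1334.5 in CD137 minus. The part of this was not tested. In CD137 plus cells 5 receptors were higher with Pdcd1 and 0 lower, where 31.7% of genes were higher and 4.21% lower. Tnfrsf4 differed by 1.85, Icos by 1.23, Tnfrsf1b by 1.12, Tnfrsf18 by 1.04, Cd27 by 0.74 and Cd28 by 0.21, beside a median of 0.34, relative to which Cd27 stood at 0.41 and Cd28 at -0.12. In CD137 minus cells all 6 were higher, where 44.5% of genes were higher and 4.4% lower. Tnfrsf4 was at 202 CPM with Pdcd1 and 20.8 CPM without in that library, a difference of 3.22 (2.93 to 3.65). The others were at 1.67 for Icos, 1.52 for Tnfrsf18, 1.27 for Tnfrsf1b, 1.01 for Cd27 and 0.73 for Cd28, beside a median of 0.44, relative to which Cd28 stood at 0.29. Tnfrsf4 had a value in 4.81% of the cells without Pdcd1 there and passed the filter through the cells with it alone. Its direction was thus fixed by the filter, and its call adds nothing to the count of 6.

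Both gates together separated the receptors further. Among cells with a Pdcd1 value, those that also had Tnfrsf9 were higher in 2 receptors and lower in 0 in each library. They also had more genes detected at the median, 1692 against 1158 in CD137 plus and 2079.5 against 1524.5 in CD137 minus. The part of this was not tested. In CD137 plus 17.1% of genes were higher and 4.01% lower in this comparison, and in CD137 minus 23.0% were higher and 6.27% lower. The 2 were the neighbours Tnfrsf4 and Tnfrsf18. Tnfrsf4 was at 259 against 92.8 CPM in CD137 plus, a difference of 1.47 (1.25 to 1.72), and at 305 against 146 CPM in CD137 minus, a difference of 1.06 (0.81 to 1.33). Tnfrsf18 differed by 0.88 (0.70 to 1.07) and 0.62 (0.38 to 0.86), the second of which was 0.42 relative to the median and short of the size. Icos differed by 0.41 and 0.39, Cd27 by 0.31 and 0.14 and Tnfrsf1b by 0.04 and 0.30, beside medians of 0.17 and 0.19 for all genes. Cd28 was lower with Tnfrsf9 in both libraries, at -0.23 (-0.38 to -0.07) and -0.28 (-0.51 to -0.07), short of the size.

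Tumour CD137 plus cells without Pdcd1 could be split in the same way, a comparison added after the data were seen. The 279 cells with Tnfrsf9 and the 960 cells with neither gene had nearly the same number of genes detected, 1184 and 1188 per cell at the median. Tnfrsf4 was at 167 against 22.9 CPM in these cells, a difference of 2.82 (2.48 to 3.27). It had a value in 4.90% of the cells with neither gene and passed the filter through the Tnfrsf9 cells alone. The call of Tnfrsf4 as higher therefore adds nothing here. Tnfrsf18 differed by 1.47, Icos by 1.43 and Tnfrsf1b by 1.07, beside a median of 0.15 for all genes. Cd27 was at 0.17 (-0.12 to 0.46) and Cd28 at -0.09 (-0.32 to 0.13). In the CD137 minus library 28 cells had Tnfrsf9 without Pdcd1, too few for the same split.

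**Figure D3:**
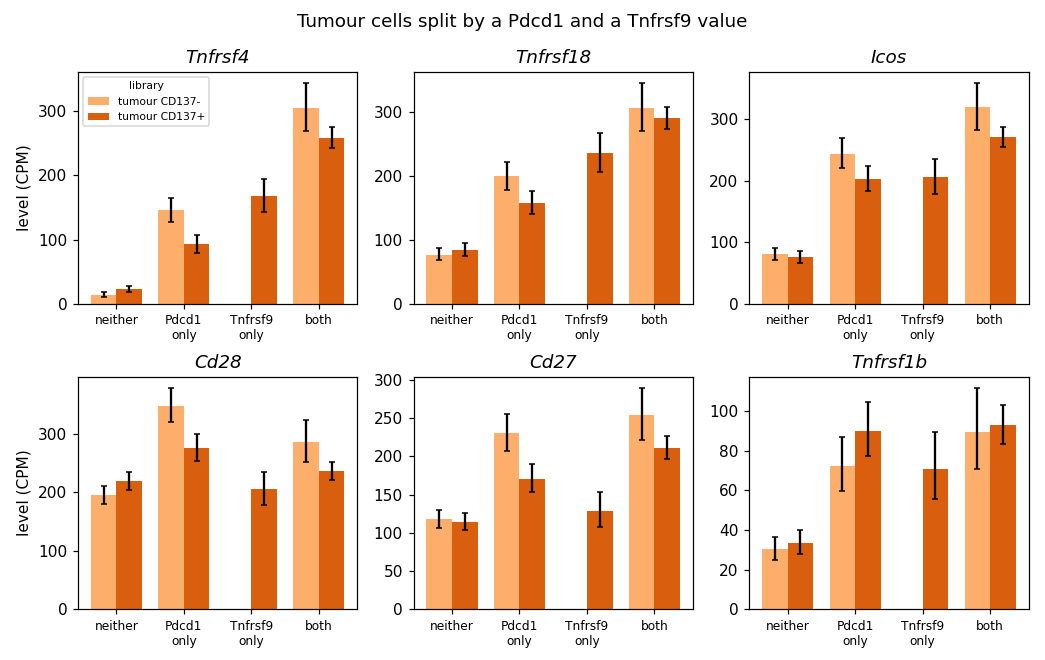
Level of each receptor in CPM in tumour cells with neither gate gene, with a Pdcd1 value only, with a Tnfrsf9 value only and with both. Error bars are exact 95% Poisson intervals of the summed counts, and the group of 28 CD137 minus cells with Tnfrsf9 only is not drawn. Tnfrsf4 goes from 14.0 and 22.9 CPM in cells with neither to 305 and 259 CPM in cells with both, and Cd28 from 195 and 218 CPM to 286 and 236 CPM.

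The tumour libraries were then compared among cells with and among cells without Pdcd1. Among cells with Pdcd1, 0 of the 6 receptors were higher or lower, where 3.44% of genes were higher and 2.99% lower. Tnfrsf4 was at 202 CPM in CD137 minus and 201 CPM in CD137 plus, a difference of 0.00 (-0.15 to 0.16), and Tnfrsf18 at 237 and 244 CPM, a difference of -0.04 (-0.18 to 0.10). Cd28 was at 326 against 249.5 CPM, a difference of 0.38 (0.26 to 0.51), and Cd27 at 239 against 197 CPM, a difference of 0.27 (0.13 to 0.42). Among cells without Pdcd1, 2 receptors were lower in CD137 minus and 0 higher, where 9.09% of genes were lower and 1.65% higher. Tnfrsf4 was at 20.8 against 55.2 CPM, a difference of -1.37 (-1.80 to -1.03), and Tnfrsf18 at 81.9 against 118 CPM, a difference of -0.52 (-0.74 to -0.32). The median of all genes was -0.13 there, and relative to it Tnfrsf18 stood at -0.39, short of the size, and Tnfrsf4 at -1.23. Tnfrsf4 had a value in 4.81% of these CD137 minus cells and passed the filter through the CD137 plus cells alone. Its call therefore adds nothing to the count. The difference between the results with and without Pdcd1 was not tested.

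The share of Tnfrsf9 cells differed between these gates. Tnfrsf9 was found in 33.5% of CD137 minus and 63.7% of CD137 plus cells with Pdcd1, and in 3.74% and 22.5% of cells without it. In cells with both genes Tnfrsf4 was at 305 CPM in CD137 minus and 259 CPM in CD137 plus, and in cells with Pdcd1 alone at 146 and 92.8 CPM. So in each of these Tnfrsf9 strata of Pdcd1 cells the CD137 minus value was the higher one, whereas over all Pdcd1 cells both libraries stood at the same level. Tnfrsf18 and Icos had the same order in both strata, with 306 against 290.1 CPM and 199 against 157 CPM for Tnfrsf18, and 319 against 270.3 CPM and 244 against 203 CPM for Icos. In cells with both genes the difference, added after the data were seen, was 0.24 (0.04 to 0.43) for Tnfrsf4, 0.24 (0.04 to 0.43) for Icos and 0.08 (-0.12 to 0.27) for Tnfrsf18, whose interval holds 0. Of all genes measured there, 74.0% lay below Tnfrsf4 and 74.2% below Icos. Tnfrsf1b had the other order in both strata, with 89.5 against 93.05 CPM and 72.5 against 90.3 CPM. CD137 minus cells had more genes detected at the median in both strata. The values were 2079.5 against 1692 with both genes and 1524.5 against 1158 with Pdcd1 alone. The part of this was not tested. In cells with neither gene Tnfrsf4 was at 14.0 and 22.9 CPM from 48 and 81 counts, a difference of -0.67 (-1.26 to -0.18) that did not pass the filter, and the 5 receptors measured there lay between -0.16 and 0.09. Because the Tnfrsf9 transcript itself is altered in CD137 minus cells, a Tnfrsf9 gate need not select the same kind of cell in both libraries, and its part in these values was not tested.

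Levels were also read by the number of Pdcd1 counts in a cell. In CD137 minus cells Tnfrsf4 stood at 20.8 CPM with no Pdcd1 count, 85.2 with 1, 215 with 2 and 245 with 3 or more (132, 73 and 309 cells in the last 3 groups). In CD137 plus cells the values were 55.2, 156, 154 and 239.7 CPM (336, 367 and 824 cells). For Icos the CD137 plus values were 105, 209.8, 237 and 266 CPM, and for Tnfrsf18 118, 208, 225 and 267 CPM. The CD137 minus values were 84.4, 182, 305 and 297 CPM for Icos and 81.9, 192, 257 and 249.97 CPM for Tnfrsf18. Cd27 was at 118, 168, 164 and 223 CPM in CD137 plus and at 118, 182, 218 and 266 CPM in CD137 minus cells, and Tnfrsf1b at 41.8, 77.7, 80.5 and 103 CPM and at 32.0, 40.1, 86.7 and 91.7 CPM. The group with no Pdcd1 count was the lowest for these 5 receptors in both libraries, whereas neighbouring counts did not always differ in one direction. Cd28 was also lowest with no Pdcd1 count in CD137 plus cells, but highest with 1, at 215, 287, 241 and 238 CPM. In CD137 minus cells it was at 196 CPM without a Pdcd1 value and 326 CPM with any. Along Tnfrsf9 counts of 1, 2 and 3 or more, Tnfrsf4 was at 148, 179 and 307 CPM in CD137 plus cells and Cd28 at 244, 247 and 214 CPM. Tnfrsf4 kept no such order in CD137 minus cells, at 285, 338 and 226 CPM (106, 61 and 33 cells). Cells with 2 Pdcd1 counts in CD137 plus had fewer genes detected (1202 at the median) than those with 1 (1433) or with 3 or more (1643.5).

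Other genes marked further differences among tumour cells. Xcl1, a chemokine that draws cross-presenting dendritic cells, went with Tnfrsf4 and Tnfrsf18. Tnfrsf4 was at 146 CPM with Xcl1 and 62.5 CPM without in CD137 minus cells, and at 228 and 86.9 CPM in CD137 plus cells. Cells with Xcl1 had more genes detected, 1643 against 1339.5 and 1479.5 against 1232 at the median, and the part of this was not tested. Tnfrsf18 was at 192 against 116 CPM and 244 against 158 CPM. Tnfrsf1b did not keep one order, at 59.7 against 45.6 CPM in CD137 minus and 66.7 against 71.5 CPM in CD137 plus. Ccl5, a chemokine of memory and effector CD8 T cells, went against Tnfrsf4, which was at 79.9 CPM with Ccl5 and 141 CPM without in CD137 minus cells and at 119 and 235 CPM in CD137 plus cells. Icos and Cd28 had the opposite order, with Icos at 168 against 139 CPM and 194 against 131 CPM. Cells without Ccl5 had more genes detected at the median, 1559 against 1388.5 in CD137 minus and 1679 against 1244.5 in CD137 plus. The part of this was not tested. Gzmk, a granzyme of early effector memory cells, split Tnfrsf4 in CD137 plus (65.2 CPM with, 158 CPM without) but not in CD137 minus cells (95.9 and 94.7 CPM). Whether the libraries differ in this was not tested.

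Havcr2 (TIM-3, a receptor of late dysfunctional T cells) was read among cells with Pdcd1. In CD137 plus, with 1766 genes detected at the median against 1422.5 without Havcr2, Icos was at 318 CPM with Havcr2 and 229.8 CPM without, while Tnfrsf4 was at 229 and 195 CPM and Cd28 at 242 and 251 CPM. Tcf7, a transcription factor of naive and stem-like T cells, was tied to lower Tnfrsf1b inside the same gate, at 59.4 CPM with and 96.1 CPM without in CD137 plus and 42.0 and 85.1 CPM in CD137 minus. Tnfrsf4 was not lower in the Tcf7 cells of that gate, at 218 against 199 CPM and 252 against 193 CPM. In cells with Mki67, a marker of division, Tnfrsf4 was at 157 against 91.6 CPM in CD137 minus (62 cells with Mki67) and at 132 against 137 CPM in CD137 plus (143 cells).

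Several of the receptors were often found in one cell. At least 3 of the 6 had a value in 9.05% and 16.1% of spleen cells, CD137 minus first, and in 34.8% and 34.5% of tumour cells. After thinning the shares were 4.38%, 4.02%, 20.8% and 25.7%, and the spleen intervals, 3.61% to 5.27% and 2.44% to 6.20%, overlap. In tumour cells with both Tnfrsf9 and Pdcd1 the thinned share was 53.5% (45.7% to 61.1%) in CD137 minus and 44.8% (41.7% to 48.0%) in CD137 plus, and in cells with neither it was 7.36% and 8.65%. All 6 receptors were detected in 1.74% of CD137 minus and 0.795% of CD137 plus cells of the tumour (22 cells each), in 0.475% and 0.398% after thinning, and in no spleen cell.

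**Figure D4:**
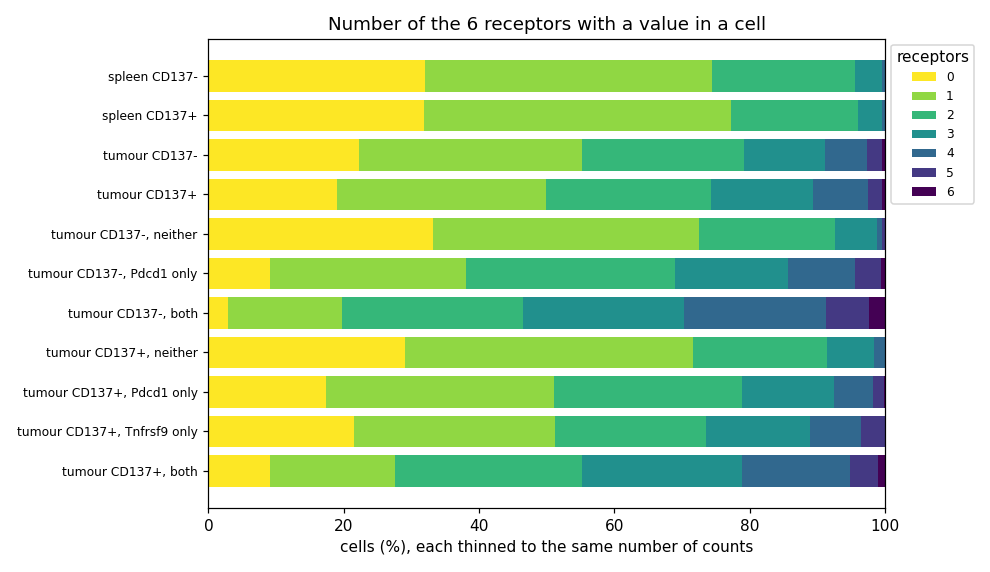
Share of cells, in percent, by the number of the 6 receptors with a value, with every cell thinned to 2900 counts. The upper 4 bars are whole libraries and the others are tumour cells split by Pdcd1 and Tnfrsf9. At least 3 receptors were found in 53.5% and 44.8% of cells with both gate genes and in 7.36% and 8.65% of cells with neither.

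Among tumour cells with a Pdcd1 value, each of the 15 pairs of receptors was read as the share of cells with the second gene among those with and without the first. This share was higher with the first gene in both libraries for 12 pairs, and for 11 after thinning. Tnfrsf18 was found in 73.5% of CD137 minus cells with Tnfrsf4 and 45.5% without, and in 67.8% and 37.5% of CD137 plus cells. Icos was found in 63.9% of CD137 minus cells with Tnfrsf18 and 34.1% without, and in 53.5% and 36.1% of CD137 plus cells. After thinning the gaps were 17.5 and 25.1 percentage points for Tnfrsf4 with Tnfrsf18 and 12.3 and 13.3 for Tnfrsf18 with Icos. Cd28 was found in 63.7% of CD137 minus cells with Tnfrsf4 and 64.8% without, and in 56.9% and 45.3% of CD137 plus cells. Cells with a receptor had more genes detected (2076.5 against 1462 at the median for Tnfrsf4 in CD137 minus), and the part of this in the gaps that remain after thinning was not tested.

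**Figure D5:**
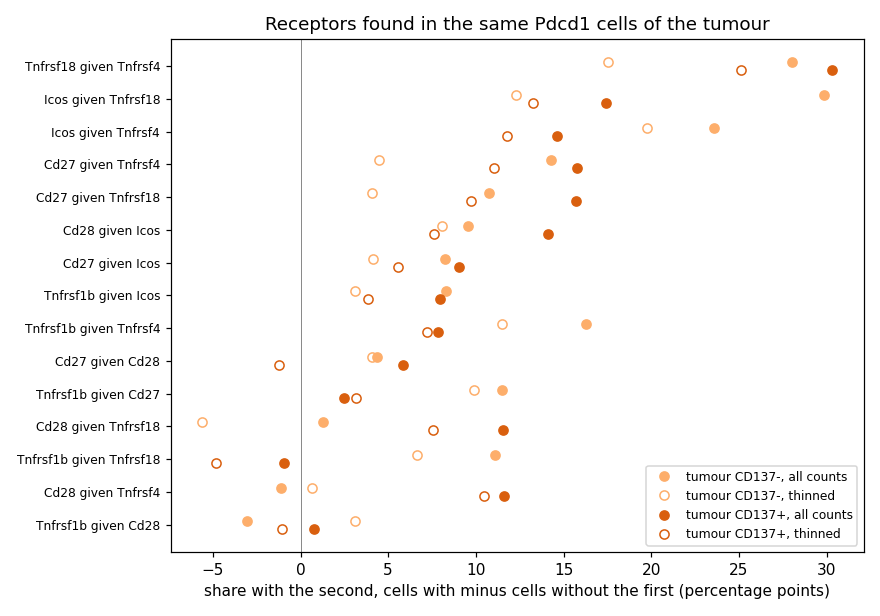
Gap, in percentage points, between the share of cells with the second receptor among tumour Pdcd1 cells that have the first receptor and those that do not. Filled circles are all counts and open circles thinned cells. By the lower gap of both libraries before thinning, the 3 pairs among Tnfrsf4, Tnfrsf18 and Icos come first, and Tnfrsf18 with Tnfrsf1b, Tnfrsf4 with Cd28 and Cd28 with Tnfrsf1b have opposite signs in the libraries.

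For each receptor the 3 genes most like it were taken by the lower of its Pearson correlations over cells in the tumour libraries (1262 and 2766 cells, 5564 genes compared). Cells of a library share its depth, so these are descriptions. Tnfrsf4 was nearest to Nrgn, with r of 0.50 in CD137 minus and 0.40 in CD137 plus, to Tnfrsf9 (0.39 in both) and to Ccr8, a chemokine receptor (0.50 and 0.39). Tnfrsf18 was nearest to Tnfrsf4 (0.38 in both), to the inhibitory receptor Lag3 (0.41 and 0.30) and to Nrgn (0.33 and 0.30). Icos was nearest to Ctla4 (0.39 and 0.31), which lies beside it on the chromosome, then to S100a4 (0.32 and 0.26) and to the chemokine receptor Cxcr6 (0.34 and 0.26).

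The other members had weaker partners. Cd28 was nearest to Icos (0.19 and 0.16), to the integrin chain Itgb1 (0.13 in both) and to Btg1 (0.14 and 0.12). Cd27 was nearest to Pdcd1 (0.28 and 0.19), to Tigit (0.24 and 0.17) and to Lag3 (0.24 and 0.17), all inhibitory receptors. Tnfrsf1b was nearest to the activation-induced nuclear receptor Nr4a2 (0.23 and 0.19), to Stat3 (0.23 and 0.19) and to Pdcd1 (0.22 and 0.18).

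The ligands of these receptors were also read. Of the 7 ligand genes in the table, 4 were measured in the Tnfrsf9 split, and 3 of them were higher with Tnfrsf9 in each library, with a median of 1.13 in CD137 plus and 1.28 in CD137 minus, beside 0.27 and 0.44 for all genes, of which 26.5% and 45.0% were higher. Tnfsf4 and Cd86, and in CD137 minus also Lta, were under 20 CPM without Tnfrsf9, so the filter fixed their direction. Tnfsf4, the ligand of OX40, was at 30.5 CPM with Tnfrsf9 and 8.88 CPM without in CD137 plus cells, and at 33.9 and 7.55 CPM in CD137 minus. Cd86, a ligand of CD28, was at 47.1 against 18.3 CPM and 42.9 against 19.1 CPM. Lta (lymphotoxin alpha), which binds TNF receptor type II, was at 41.2 against 20.8 CPM and 49.9 against 17.9 CPM. Tnf, the other ligand of that receptor, was lower with Tnfrsf9 in CD137 minus cells, at 37.9 against 56.0 CPM. Between tumour and spleen, Cd86, Lta and Tnf were the 3 ligands measured, and all 3 were above 20 CPM in the tumour alone, so that passing the filter fixed their direction.

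A further list of 18 costimulatory genes held receptors and also ligands, such as Tnfsf8 and Tnfsf9. Of these genes, 10 were measured between tumour and spleen in CD137 plus cells. There 2 were higher and 3 lower, beside 24.2% and 17.5% of all genes. Klrk1 (NKG2D) and Slamf1 were higher, and Ly9, Slamf6 and Tnfsf8 lower, in CD137 plus and in CD137 minus cells. Slamf1 was under 20 CPM in both spleen libraries, and Tnfsf8 under 20 CPM in tumour CD137 plus, so the filter fixed these directions. In the Tnfrsf9 split 13 were measured in each library and 6 were higher, beside 26.5% of all genes in CD137 plus and 45.0% in CD137 minus, and the list medians of 0.27 in both lay at or below the 0.27 and 0.44 of all genes. Among the 6 were Crtam at 72.3 against 33.5 CPM and Cd81, a tetraspanin, at 56.6 against 11.1 CPM in CD137 plus. Without Tnfrsf9, Cd81, Cd244a and Tnfsf9 were under 20 CPM in both libraries, and Slamf1 in CD137 minus. The filter thus fixed the direction of these calls. Slamf6 and Ly9 were lower with Tnfrsf9 in both libraries. In the tumour CD137 minus against plus, 3 of 11 were lower and 0 higher, beside 5.44% and 1.7% of all genes. The 3 were Klrk1, Slamf1 and Tnfsf9, the ligand of CD137. Tnfsf9 was at 17.1 against 27.0 CPM and passed the filter through CD137 plus alone, so its direction was fixed.

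Of 20 genes for TRAF adaptors and NF-kB, 18 were measured in the Tnfrsf9 split of CD137 plus cells, 7 were higher and 0 lower, beside 26.5% and 4.82% of all genes, with a median of 0.37 beside 0.27. Rel, an NF-kB subunit, was at 197 against 116 CPM, Nfkb2 at 61.4 against 32.1 CPM and Traf4, an adaptor, at 105 against 66.0 CPM. In the CD137 minus library 10 of 18 were higher and 2 lower, beside 45.0% and 5.35% of all genes. The list median was 0.56 there, beside 0.44 for all genes. The lower genes were Ikbkb and Map3k14. Map3k14 was under 20 CPM with Tnfrsf9, so the filter fixed its direction and its call adds nothing to the count. Between the tumour libraries 2 of 17 were lower in CD137 minus, Birc2 at 37.4 against 70.7 CPM and Nfkb2 at 31.0 against 45.7 CPM, and 0 were higher, beside 5.44% and 1.7% of all genes. Of 22 genes of CD28 and ICOS signalling, 0 of 16 measured were higher and 7 lower in tumour than in spleen in CD137 plus cells, beside 24.2% and 17.5% of all genes, with a median of -0.44 beside 0.07. Pik3cd, a catalytic subunit of phosphoinositide 3-kinase, was at 76.4 against 154 CPM. Pdk1, at 14.7 against 65.7 CPM, was on the list and counted among the 7. That symbol names pyruvate dehydrogenase kinase 1, a metabolic enzyme and not a kinase of CD28 signalling. It was under 20 CPM in the tumour, so the filter fixed its direction. In CD137 minus cells 3 of 14 were higher and 4, Pdk1 among them, lower in the tumour. Of all genes 22.0% were higher and 14.5% lower, so the share higher was that of any genes.

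Since OX40, GITR and ICOS are abundant on regulatory T cells, cells with Foxp3 or Cd4 were counted. Foxp3 was listed at 0 in both spleen libraries and had a value in 0.475% of CD137 minus and 0.434% of CD137 plus cells of the tumour. Cells with Foxp3 or Cd4, 25 and 24 in the tumour libraries, held 5.58% and 3.99% of the Tnfrsf4 counts and 6.60% and 1.27% of the Icos counts. The 12 Foxp3 cells of tumour CD137 plus held 54 of 1404 Tnfrsf4 counts. Without all cells with Foxp3 or Cd4, the number of receptors higher or lower was the same in each of the 12 comparisons. The 5 genes of the CD4 and regulatory T cell list, Tnfrsf4 left out, summed to 26.9, 25.5, 270.3 and 319 CPM over the 4 libraries, with Ctla4, which activated CD8 T cells also express, among them at 166 and 209.7 CPM in the tumour. With a Tnfrsf9 value the sum was 635 against 198 CPM in CD137 minus and 466 against 192 CPM in CD137 plus.

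Markers of other cells were summed over the same groups. The 5 melanoma genes of the table summed to 34.3 and 33.4 CPM in the tumour, with Tyrp1 listed at 0 in CD137 minus. The 6 B cell genes summed to 250.5 to 683 CPM over the Tnfrsf9 gates and were lower with Tnfrsf9, with Ms4a1 listed at 0 in both tumour libraries. The 3 NK cell genes summed to 138 CPM with Tnfrsf9 and 67.8 CPM without in CD137 plus cells, and to 128 and 42.7 CPM in CD137 minus cells, where Klra8 was listed at 0. The 6 macrophage genes, all with a value in the tumour, summed to 275 CPM with Tnfrsf9 and 159 CPM without in CD137 minus, and to 259.5 and 289.6 CPM in CD137 plus. The 5 dendritic cell genes summed to 110 CPM with Tnfrsf9 and 251 CPM without in CD137 minus, where Flt3 was listed at 0, and to 141 and 310.0 CPM in CD137 plus. The 2 gamma delta T cell genes summed to 14.0 against 2.18 CPM in CD137 minus and to 3.58 against 5.80 CPM in CD137 plus. The part of such cells in the Tnfrsf9 results was not tested. Restricting the cells to those with Cd8a or Cd8b1 and without Cd79a, Lyz2, C1qa, Mlana or Pmel changed no count of receptors in the 12 comparisons, but left in cells with NK, dendritic or gamma delta T cell genes.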

How the data were processed

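The submitters' processing notes name the mm10 build and, as tools, Seurat 3.0 and Cell Ranger 3.0.2. For parameters, filters on cells and doublets, the steps are not stated. The deposited values are natural log (ln) values, the ln of 1 plus a whole number to a tolerance of 1e-12, for 6965 cells and 12763 genes in 4 libraries with 1 library per group, and 0 per-sample columns were left unused. The exponential minus 1 gave back the whole numbers. Totals per cell lie in a narrow range in each library (2949 to 4588 in tumour CD137 plus, 4096 to 5872 in spleen CD137 plus), which is read from the values as a correction to one depth that the authors made, hence the name corrected counts, to which no count model was fitted. This correction raises or lowers the counts of shallow and deep cells and blurs depth as a measure.

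Corrected counts were summed over the cells of a library or gate and scaled to 1000000 (CPM). A gate is a value above 0 of the named gene. Log2 ratios used a pseudocount of 1 CPM. Genes were measured at 20 CPM or more and a value in 5% of cells in one of the groups, with a value in both. A size of 0.5 was counted as higher or lower. Shares have Clopper-Pearson intervals and log2 ratios exact conditional binomial intervals, both at 95% and for counting error only. The intervals of log2 ratios were computed without the pseudocount. Cells were thinned to 2900 counts, with 0 cells lost. The ratio and its interval were tested on simulated data. No doublet caller was run and no cluster was made.

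The members, lists and comparisons were chosen with earlier results of these data known. Named genes are the 6 receptors, the 2 gate genes, Ctla4, the 3 genes most like each receptor and list genes past the size, and the single genes used to split cells further were chosen in the same way. Promoter windows came from RefSeq and gene positions from GENCODE. Figures were drawn with matplotlib 3.10.9, and values were computed in Python 3.11.15 with pandas 2.3.3, scipy 1.17.1 and numpy 2.4.6. Alternatives were another pseudocount, no scaling, centring on the median of all genes, a size of 1, no filter, a gate of 2 counts, equal weight per cell and 2 restrictions of the cells.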

Additional observations from a re-analysis of the deposited data

How the results depend on the processing

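The number of receptors higher or lower kept within 1.5 times its value in 87 of 103 recomputations, and no receptor counted as higher or lower changed direction. Of the 462 recomputed log2 ratios, 15 changed sign, all of receptors not counted as higher or lower. Without scaling, in CD137 minus against plus, these were Icos in the tumour (0.17), Tnfrsf18 and Cd28 in the spleen (-0.27 and -0.32), Tnfrsf18 and Tnfrsf1b among Pdcd1 cells (0.32 and 0.13) and Icos and Cd28 among cells without Pdcd1 (0.06 and 0.24). Restricting the cells in either way, weighting each cell equally and gating at 2 counts moved no number. In tumour CD137 minus against plus the 1 receptor became 0 with a pseudocount of 10 CPM, without scaling, relative to the median of all genes and at a size of 1. In the spleen the 0 became 1 without a filter. In the Tnfrsf9 split the 5 became 3 relative to the median and at a size of 1 in CD137 plus, and 3 at a size of 1 in CD137 minus. Within Pdcd1 cells the 2 became 1 at a size of 1 in CD137 plus, and 1 relative to the median and at a size of 1 in CD137 minus. Between the tumour libraries, the 0 among Pdcd1 cells became 2 without scaling, and the 2 among cells without Pdcd1 became 1 with a pseudocount of 10 CPM, without scaling, relative to the median and at a size of 1. A larger size and a larger pseudocount give fewer calls by construction, and for the other settings the cause was not tested. Of the log2 ratios, 392 stayed within their interval. After thinning, 22 of 24 shares of cells fell outside theirs, so shares are bound to the depth at which they are given. No paired analysis was possible because no mouse is named for a cell in the table used here, which leaves 1 library per group.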
